A study of Mus musculus with 2 samples.

Results

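Motile cilium genes were read in single cells of the mouse arcuate nucleus and median eminence, hypothalamic tissue at the floor of the third ventricle. They were the rows named Dnah, Dnai, Dnal or Dnali (dynein chains of the axoneme), Cfap (cilia and flagella associated proteins), Tekt (tektins), Rsph (radial spoke proteins) or Spag (sperm associated antigens) followed by a number, with Foxj1 and Dynlrb2. Their names chose 62 of 29809 genes in the tables: 26 Cfap genes, 12 dynein heavy chains, 9 Spag genes, 6 radial spoke genes, 5 tektins, 3 light or intermediate chains and Foxj1. Of these, 60 stood among the 25354 genes listed for the Irx3/5dHet library and 62 among the 28008 listed for the WT library, since Rsph6a and Spag6 were listed for WT alone. For 6 members a use outside motile cilia is known (Spag5, Spag7, Spag9, Cfap20, Cfap36 and Cfap97). This list of 6 need not be complete. The other 56 are summed apart from these and are called, for short, the 56 axonemal members. The name is loose, since they include Foxj1, a transcription factor, and others among them need not be parts of the axoneme.

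The series compared the genotype Irx3/5dHet (label Irx3/5+/-), heterozygous for the Iroquois transcription factor genes Irx3 and Irx5, with wild type (WT). Each genotype was 1 Drop-seq library of dissociated, sorted live cells, pooled from 5 Irx3/5dHet and 7 WT mice of the CD-1 strain aged 7 to 8 weeks. Drop-seq captures single cells with barcoded beads in droplets and counts the 3′ ends of transcripts by unique molecular identifiers (UMIs). Since nothing maps cells to single mice, each library is 1 sample, no p-value is given, and each interval below is a 95% interval that covers counting error only.

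Motile cilia are built on an axoneme, a ring of doublet microtubules around a central pair. Outer and inner dynein arms on the doublets slide them past each other, radial spokes pass signals between the central pair and the arms, and filaments and inner proteins stiffen the doublets. Foxj1 is the transcription factor that turns on this programme, together with RFX factors. In the brain ventricles, ependymal cells carry tufts of motile cilia that move cerebrospinal fluid. Tanycytes line the ventricle floor and lower walls, send a long process into the tissue, and mostly lack such tufts.

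RefSeq sequences around transcription starts (GRCm38.p6, 250 bases before to 50 after) matched 51 of the 62 members in 59 windows. The 6 letters GTTGCC, an arm of the X-box that RFX factors bind, were searched on both strands (GGCAAC on the other) and stood in 17 of 59 member windows (28.8%), against 12.5% of all 32851 windows. The longer GTTGCCA, which overlaps it, stood in 9 member windows (15.25%), against 4.38% of all windows. The forkhead motif GTAAACA, searched as spelled and as its reverse complement, stood in 4 member windows (6.78%), against 3.65% of all. These matches describe letters and show no binding. The windows of 5 members are shown up to the start site, 5′ to 3′ on the gene's own strand, with GTTGCC and GTAAACA in capitals. Each of the 5 holds at least 1 of these motifs, so they do not stand for all members. Of the 51 matched members, 15 (29.4%) had a window with GTTGCC, against 14.1% of all genes, and 4 had one with GTAAACA. Dynlrb2, Tekt1 and Cfap44 were read in ependymal-like and in many tanycyte-like cells. Summed over both libraries, Cfap43 had nearly equal UMI counts in ependymal-like and Crym tanycyte-like cells (classes named below). Scaled to the UMIs of each class, its Crym tanycyte-like level was lower in WT and similar in Irx3/5dHet. Dnah10 was read in ependymal-like and in no tanycyte-like cells. Their windows were chr8:116504765-116505014 on the plus strand (Dynlrb2), chr11:72361883-72362132 on the minus strand (Tekt1), chr16:44394549-44394798 on the plus strand (Cfap44), chr19:47837362-47837611 on the minus strand (Cfap43) and chr5:124724835-124725084 on the plus strand (Dnah10). Tekt1 has a second RefSeq window, chr11:72361297-72361546 on the minus strand, which is not shown and held neither motif.
Dynlrb2: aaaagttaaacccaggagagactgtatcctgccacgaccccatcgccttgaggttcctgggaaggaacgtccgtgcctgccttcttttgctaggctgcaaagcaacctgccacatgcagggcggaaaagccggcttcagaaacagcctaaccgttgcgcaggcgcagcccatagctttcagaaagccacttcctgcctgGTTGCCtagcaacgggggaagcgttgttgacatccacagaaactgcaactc
Tekt1: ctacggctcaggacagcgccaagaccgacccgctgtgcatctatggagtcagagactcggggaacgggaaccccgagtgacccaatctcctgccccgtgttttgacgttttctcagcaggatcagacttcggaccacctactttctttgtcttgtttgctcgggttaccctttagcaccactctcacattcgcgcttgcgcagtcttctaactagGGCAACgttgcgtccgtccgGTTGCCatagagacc
Cfap44: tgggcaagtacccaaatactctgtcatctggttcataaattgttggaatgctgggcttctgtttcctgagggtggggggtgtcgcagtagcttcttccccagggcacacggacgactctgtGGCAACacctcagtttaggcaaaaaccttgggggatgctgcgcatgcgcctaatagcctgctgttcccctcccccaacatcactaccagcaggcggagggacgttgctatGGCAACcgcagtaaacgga
Cfap43: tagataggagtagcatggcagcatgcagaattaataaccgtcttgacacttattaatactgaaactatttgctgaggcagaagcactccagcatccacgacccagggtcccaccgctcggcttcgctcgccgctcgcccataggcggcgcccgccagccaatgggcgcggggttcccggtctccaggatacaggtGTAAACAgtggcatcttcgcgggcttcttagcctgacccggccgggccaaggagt
Dnah10: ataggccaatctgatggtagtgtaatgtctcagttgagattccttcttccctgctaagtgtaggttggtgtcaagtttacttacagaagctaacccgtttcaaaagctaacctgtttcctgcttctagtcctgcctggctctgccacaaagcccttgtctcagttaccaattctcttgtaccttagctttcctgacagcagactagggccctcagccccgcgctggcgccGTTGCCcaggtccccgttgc
Dynlrb2, Tekt1, Cfap44 and Dnah10 held the RFX letters close before the start, beginning 51 bases before it in Dynlrb2 and 20 bases before it in Dnah10. Cfap43 held the forkhead letters and not GTTGCC in this window.

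The tables held 1800 Irx3/5dHet and 2800 WT barcodes with 2974060 UMIs in Irx3/5dHet and 4426817 in WT. After cells with under 300 genes or over 20% mitochondrial UMIs and called doublets were left out, 1480 Irx3/5dHet and 2392 WT cells stayed, with a median of 1156.5 UMIs per cell in Irx3/5dHet and 1274 in WT. The libraries shared 3 barcode sequences. Levels are UMIs per 1000000 UMIs of a library or class (CPM). The targeted genes were read at 5.26 CPM (2.95 to 8.68) in Irx3/5dHet and 7.05 CPM (4.76 to 10.1) in WT for Irx3 (15 UMIs in Irx3/5dHet and 30 in WT), and at 2.11 CPM (0.772 to 4.58) in Irx3/5dHet and 3.76 CPM (2.15 to 6.11) in WT for Irx5. Their intervals overlapped, so the genotype labels could not be checked at this depth. Cells were grouped into classes named from marker genes as "like" a cell type, with the 62 members left out of the clustering. Other cilium genes such as Ccdc153 and Tmem212 stayed in it. Ependymal-like cells were 1 cluster of 86 Irx3/5dHet and 169 WT cells, led by Ccdc153 and Tmem212, with all 12 fixed ependymal markers. Tanycyte-like cells were 2 clusters. The larger, led by Cyr61, Mlc1, Gja1 and Crym, is called Crym tanycyte-like (116 Irx3/5dHet and 296 WT cells), and the smaller, led by Cldn10 and Scn7a, is called Scn7a tanycyte-like (51 Irx3/5dHet and 83 WT cells). Dynlrb2 and Cfap126 were among the 10 leading genes of the Crym cluster, although neither had been used to form it, and so was Mia, an ependymal marker.

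Ependymal-like cells had the highest level of the 56 axonemal members among the classes in each library, Crym tanycyte-like cells came next, and every other class lay far lower. The members summed to 17618 CPM (16890 to 18369) in Irx3/5dHet ependymal-like cells and 15261 CPM (14796 to 15737) in WT ones. Crym tanycyte-like cells had 6605 CPM (6137 to 7100) in Irx3/5dHet and 4995 (4784 to 5214) in WT. Scn7a tanycyte-like cells had 679 CPM (519 to 872) in Irx3/5dHet and 779 (663 to 911) in WT. The other classes with at least 20 cells in a library ranged from 187 CPM in oligodendrocyte-like cells to 729 in pars tuberalis-like cells in Irx3/5dHet, and from 109 CPM in endothelial-like cells to 731 in neuron-like cells in WT. Relative to all cells that were neither ependymal- nor tanycyte-like, the summed level was 34.0-fold (31.7 to 36.4) in Irx3/5dHet and 28.3-fold (26.8 to 29.9) in WT ependymal-like cells. The same ratio was 12.75 (11.6 to 14) in Irx3/5dHet and 9.26 (8.70 to 9.87) in WT for Crym tanycyte-like cells, and 1.31 (0.996 to 1.69) in Irx3/5dHet and 1.45 (1.22 to 1.70) in WT for Scn7a tanycyte-like cells. Ependymal-like cells thus held 51.1% of the Irx3/5dHet and 50.02% of the WT UMIs of these members, with 4.39% of all UMIs in Irx3/5dHet and 6.28% in WT. Of the UMIs of the 6 members with wider use, neuron-like cells held 71.3% in Irx3/5dHet and 50.2% in WT, close to their 66.9% of all UMIs in Irx3/5dHet and 45.4% in WT.

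**Figure D1:**
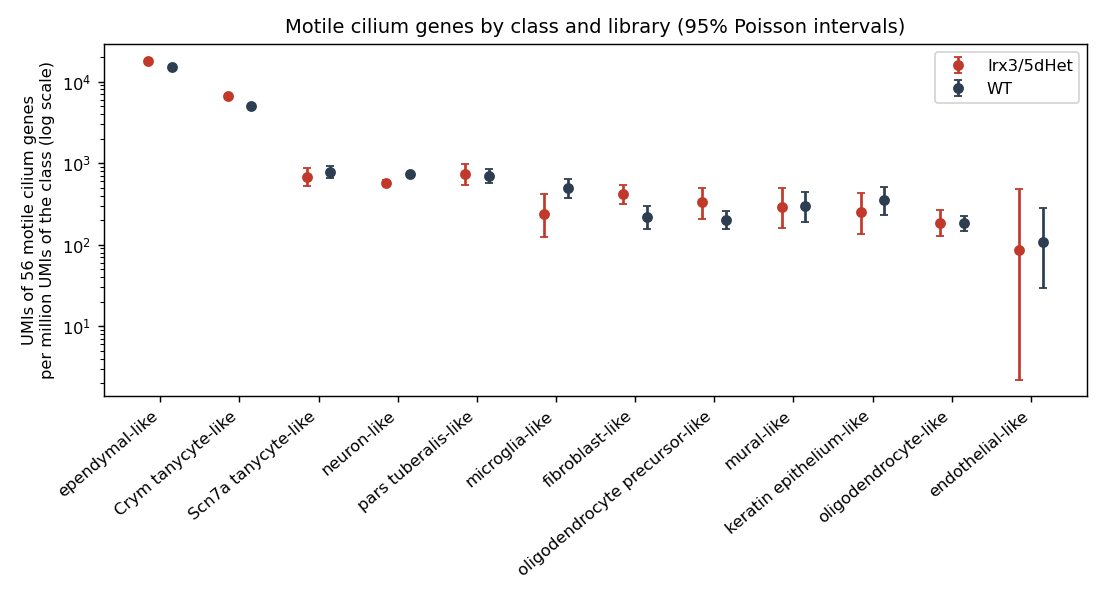
Summed UMIs of the 56 axonemal members per 1000000 UMIs of a class (y axis, log scale) in 12 cell classes (x axis), Irx3/5dHet left of WT, with 95% Poisson intervals. Ependymal-like cells stand at 17618 in Irx3/5dHet and 15261 in WT, Crym tanycyte-like cells at 6605 in Irx3/5dHet and 4995 in WT, and all other classes at or under 779.

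Member by member, 43 of the 59 members with at least 10 UMIs over all cells were at least 4-fold higher in ependymal-like cells than in cells neither ependymal- nor tanycyte-like, in each library and with at least 3 UMIs in each. Of all 18951 genes with as many UMIs, 4.9% met this call. The median log2 ratio of the members was 5.45 in Irx3/5dHet and 5.24 in WT (0.5 added to each sum), against 0.14 in Irx3/5dHet and -0.19 in WT over all those genes. The 43 were all axonemal members, and none of the 6 members with wider use passed. In ependymal-like cells, 58 of 62 members had a UMI and 52 had at least 10 over both libraries. Dnah8, Dnah17, Rsph6a and Spag4 had none, where a count of 0 allows a level of up to 24.0 CPM in Irx3/5dHet and 11.2 CPM in WT (3 counts per library). CPM values count transcript 3′ ends and are not scaled by length, so an order of genes by UMIs is an order of counts.

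The transcription factor Foxj1 (minus strand of chromosome 11, 116330704 to 116335399 in GRCm38, GENCODE vM21) was read at 768 (622 to 938) in Irx3/5dHet and 869 (760 to 988) in WT ependymal-like cells (CPM). It was found in 47 of 86 Irx3/5dHet and 109 of 169 WT cells. Its level was 138-fold (78.6 to 263) that of the non-ventricular classes in Irx3/5dHet and 122-fold (79.9 to 194) in WT.

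Radial spoke genes summed to 4926 CPM in Irx3/5dHet and 4388 CPM in WT. Rsph1, a spoke head protein (minus strand of chromosome 17, 31255019 to 31277383), had the most UMIs of any member. It reached 3599 (3274 to 3947) in Irx3/5dHet and 3336 (3121 to 3562) in WT (CPM) and was found in 78 of 86 Irx3/5dHet and 159 of 169 WT cells. Rsph4a, another spoke head protein (plus strand of chromosome 10, 33905111 to 33916021), had 904 (745 to 1086) in Irx3/5dHet and 719 (621 to 828) in WT. Rsph9, also a spoke head protein, had 296 in Irx3/5dHet and 213 in WT. The rest of the family was low or unread: Rsph3a, of the spoke stalk, had 80.0 in Irx3/5dHet and 26.2 in WT, Rsph14 had 48.0 in Irx3/5dHet and 93.6 in WT, and Rsph6a, known from sperm, had none.

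Among dynein light and intermediate chains, Dynlrb2, a roadblock-type light chain (plus strand of chromosome 8, 116504974 to 116515915), had 1863 (1632 to 2119) in Irx3/5dHet and 1280 (1148 to 1424) in WT (CPM). The intervals of the libraries did not overlap. Dnali1, an inner arm chain, had 448 in Irx3/5dHet and 449 in WT. Dnal1, an outer arm light chain, had 264 in Irx3/5dHet and 232 in WT, only 3.92-fold above the non-ventricular classes in Irx3/5dHet and 3.40-fold in WT. The 3′ end of Dnali1 overlaps Gnl2 and that of Dnal1 overlaps Pnma1, each on the other strand. Use of strand in counting was not stated in the sources used here, so UMIs of such partners cannot be told apart.

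Dynein heavy chains, the motors themselves, were read at lower counts: 10 of 12 had a UMI and 9 had at least 10. Of the outer arm chains, Dnah5 had 24 UMIs (192 CPM) in Irx3/5dHet and 66 UMIs (247 CPM) in WT. Dnah9 had 16 UMIs (128 CPM) in Irx3/5dHet and 35 UMIs (131 CPM) in WT. Dnah11, whose 3′ end overlaps Cdca7l, had 12 UMIs (96.0 CPM) in Irx3/5dHet and 19 UMIs (71.1 CPM) in WT. None of these 3 differed between the libraries beyond counting error. Of the inner arm chains, Dnah12 had 35 UMIs (280 CPM) in Irx3/5dHet and 65 UMIs (243 CPM) in WT. Dnah6, whose 3′ end overlaps Gm20560, had 28 UMIs (224 CPM) in Irx3/5dHet and 57 UMIs (213 CPM) in WT. Dnah3 (minus strand of chromosome 7, 119922671 to 120095280) had 25 UMIs (200 CPM) in Irx3/5dHet and 17 UMIs (63.7 CPM) in WT, the one heavy chain whose libraries differed beyond counting error. Dnah10 (plus strand of chromosome 5, 124725085 to 124834308) had 12 UMIs (96.0 CPM) in Irx3/5dHet and 21 UMIs (78.6 CPM) in WT. Dnah1 and Dnah2 each stayed under 120 CPM in each library. The outer arm chains Dnah8 and Dnah17, known from sperm, were at 0. Dnah14 had 0 UMIs in Irx3/5dHet and 3 in WT. Most of its UMIs lay in oligodendrocyte-like cells, 7 in Irx3/5dHet and 28 in WT, and its 3′ end overlaps that of Lbr on the other strand.

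All 26 Cfap genes had a UMI in ependymal-like cells. Several encode proteins inside the doublet microtubules. Among these, Cfap45 (plus strand of chromosome 1, 172520801 to 172545870) had 1336 (1141 to 1554) in Irx3/5dHet and 891 (781 to 1012) in WT (CPM). Cfap126 (plus strand of chromosome 1, 171113918 to 171126967) had 1200 (1015 to 1408) in Irx3/5dHet and 970 (855 to 1095) in WT. Cfap161 had 520 in Irx3/5dHet and 479 in WT. These 3 were the leading members of the family with no wider use. Cfap52, also an inner protein, had 344 in Irx3/5dHet and 191 in WT, and Cfap77 had 288 in Irx3/5dHet and 221 in WT. Cfap43 (minus strand of chromosome 19, 47736857 to 47919287) had 328 in Irx3/5dHet and 352 in WT. Its partner Cfap44 had 391.9 in Irx3/5dHet and 412 in WT. The pair tethers inner arm dyneins, as known from Tetrahymena. Cfap54, a central pair protein, had 240 in Irx3/5dHet and 243 in WT. Cfap206, which docks a radial spoke in Tetrahymena, had 352 in Irx3/5dHet and 202 in WT. Cfap100, whose 3′ end overlaps Zxdc, had 240 in Irx3/5dHet and 281 in WT. Of the members with wider use, Cfap36 had 600 in Irx3/5dHet and 580 in WT and Cfap20 had 328 in Irx3/5dHet and 337 in WT. Cfap36 was only 1.64-fold above the non-ventricular classes in Irx3/5dHet and 1.95-fold in WT.

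Tektins, filament proteins of the doublet, differed among themselves. Tekt1 (minus strand of chromosome 11, 72344722 to 72362442) had 408 in Irx3/5dHet and 344 in WT (CPM). Tekt4 had 320 in Irx3/5dHet and 213 in WT. Tekt2, Tekt3 and Tekt5 each stayed under 75 CPM in each library. Tekt2 was at 0.518-fold (0.0616 to 1.93) the level of the non-ventricular classes in Irx3/5dHet and at 2.36-fold (1.38 to 3.82) in WT. Of the Spag genes, Spag17, a central pair protein whose 3′ end overlaps Wdr3, had 168 in Irx3/5dHet and 217 in WT. Spag16, also of the central pair, had 136 in Irx3/5dHet and 120 in WT. Spag8 had 248 in Irx3/5dHet and 183 in WT.

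Other genes of motile cilia, on lists set apart from the members, lay in the same cells. They stayed in the clustering, and 6 of them (Ccdc153, Tmem212, Fam183b, 1110017D15Rik, Enkur and Meig1) are also ependymal markers, so their counts in ependymal-like cells are a description that the forming of the class partly fixed. Of 58 measured genes for central pair and other axoneme proteins, 54 met the 4-fold call in ependymal-like cells, as did 12 of 13 for docking, ruler and nexin proteins and 8 of 11 dynein arm assembly factors. Of 29 genes of intraflagellar transport, which primary cilia use too, 10 met it (34.5%), as did none of 13 cytoplasmic dynein genes and 4.9% of all genes. The median log2 ratio of the transport genes was 1.96 in Irx3/5dHet and 1.79 in WT. Over all genes it was 0.14 in Irx3/5dHet and -0.19 in WT. The 10 genes of the axoneme list with most UMIs were Tuba1a, Ccdc153, Tmem212, Fam183b, Tppp3, Mns1, Enkur, Tubb4b, 1110017D15Rik and Ak7. They ranged from 912 CPM (Enkur) to 3679 (Tuba1a, an alpha tubulin) in Irx3/5dHet and from 805 CPM (1110017D15Rik) to 2741 (Tuba1a) in WT, and all but Tuba1a met the call. Ift74, Wdr60, Ift81, Ift22 and Ift20, the transport genes with most UMIs, ranged from 288 CPM (Ift20) to 608 (Ift74) in Irx3/5dHet and from 262 CPM (Ift20) to 438 (Ift74) in WT. Of the regulators, Myb, Trp73, Rfx2 and Deup1 met the call and Rfx1, Rfx3, Rfx4 and Ccno did not. Myb, which acts early in the making of ciliated cells, had 10 UMIs (80.0 CPM) in Irx3/5dHet and 36 UMIs (135 CPM) in WT, and Mcidas had none in either.

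Crym tanycyte-like cells also read most of the axonemal members, at a lower level. The 4-fold call against the non-ventricular classes was met by 31 of 59 members in them, against 2.73% of all genes, and all 31 were axonemal members. Their summed level was 0.375 (0.344 to 0.408) of the ependymal-like level in Irx3/5dHet and 0.327 (0.310 to 0.345) in WT. Rsph1 had 1041 in Irx3/5dHet and 990 in WT (CPM). Cfap126 had 790 in Irx3/5dHet and 566 in WT, and Dynlrb2 had 521 in Irx3/5dHet and 421 in WT. These 3 led the axonemal members here, and all 3 were also among the first 4 in ependymal-like cells. Cfap45 had 503 in Irx3/5dHet and 343 in WT, Cfap43 had 332 in Irx3/5dHet and 224 in WT, and Rsph4a had 287 in Irx3/5dHet and 167 in WT. Tekt1 had 269 in Irx3/5dHet and 159 in WT, and Rsph9 had 179 in Irx3/5dHet and 157 in WT. Cfap36 had 440 in Irx3/5dHet and 426 in WT and Cfap20 had 153 in Irx3/5dHet and 169 in WT. Of the other lists, 41 of 58 axoneme genes, 8 of 13 docking, ruler and nexin genes and 6 of 11 assembly factors met the call, against 2 of 29 transport genes, 0 of 13 cytoplasmic dynein genes and 0 of 8 regulators. Ccdc153, the leading gene of the ependymal-like cluster, had 0 UMIs in Irx3/5dHet and 5 UMIs in WT Crym tanycyte-like cells, set beside 288 in Irx3/5dHet and 543 in WT ependymal-like cells. Tmem212 had 8 UMIs in Irx3/5dHet and 9 in WT, set beside 315 in Irx3/5dHet and 474 in WT. The ratio between the classes was thus not the same for all genes of the ependymal-like cells. The ependymal marker list, of which 6 of 12 genes are also on the axoneme list, summed to 3931 CPM in Irx3/5dHet and 3107 CPM in WT Crym tanycyte-like cells, and to 17866 CPM in Irx3/5dHet and 15666 CPM in WT ependymal-like cells. The tanycyte list summed to 2558 CPM in Irx3/5dHet and 2567 CPM in WT Crym tanycyte-like cells, and to 832 CPM in Irx3/5dHet and 760 CPM in WT ependymal-like cells. At the finer clustering described below, Crym tanycyte-like cells were a mix, and only some were again named tanycyte-like. These had 5768 CPM of axonemal members in Irx3/5dHet and 4387 in WT. Those in an unnamed cluster had 6696 in Irx3/5dHet and 5517 in WT, and astrocyte-like ones 1625 in Irx3/5dHet and 4306 in WT. Those in an ependymal-like cluster had 9492 CPM (200 UMIs) in Irx3/5dHet and 8240 CPM (219 UMIs) in WT.

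The members differed in how much of their ependymal-like level was read in Crym tanycyte-like cells. Over 39 axonemal members with at least 10 ependymal-like UMIs in each library, the ratio ran from 0 to 1.01 in Irx3/5dHet (median 0.327) and from 0 to 0.847 in WT (median 0.297). This minimum is set on the class the ratio divides by, so range and median depend on it. Tekt2, left out, was at 5.61 (1.20 to 52.7) in Irx3/5dHet and 0.572 (0.285 to 1.14) in WT. Cfap221, also left out, was at 0 (up to 0.953) in Irx3/5dHet and 0.195 (0.0464 to 0.633) in WT. As a description across these 39 genes, Spearman's rho of the ratios between the libraries was 0.78. In each library Cfap126, Cfap43 and Tekt1 had an interval wholly above the summed ratio. Cfap43 was at 1.01 (0.631 to 1.62) in Irx3/5dHet and 0.635 (0.472 to 0.855) in WT. Over both libraries it had 131 UMIs in Crym tanycyte-like and 135 in ependymal-like cells. Scaled to the UMIs of each class, this was a ratio of 0.715 (0.558 to 0.917). Cfap126 was at 0.658 (0.50 to 0.862) in Irx3/5dHet and 0.584 (0.488 to 0.699) in WT, and Tekt1 at 0.660 (0.406 to 1.06) in Irx3/5dHet and 0.463 (0.333 to 0.641) in WT. In each library Foxj1 and Dnah3 had an interval wholly below it. Foxj1 was at 0.175 (0.0945 to 0.304) in Irx3/5dHet and 0.164 (0.122 to 0.219) in WT. Dnah3 had 0 UMIs in Crym tanycyte-like cells of either library, where the interval allows a ratio of up to 0.178 in Irx3/5dHet and 0.154 in WT. Dnah10, another inner arm chain, also had 0 UMIs, and its interval allows a ratio of up to 0.404 in Irx3/5dHet and 0.122 in WT. Over both libraries the ratio was 0.0901 (0.0434 to 0.169) for Dnah5.

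**Figure D2:**
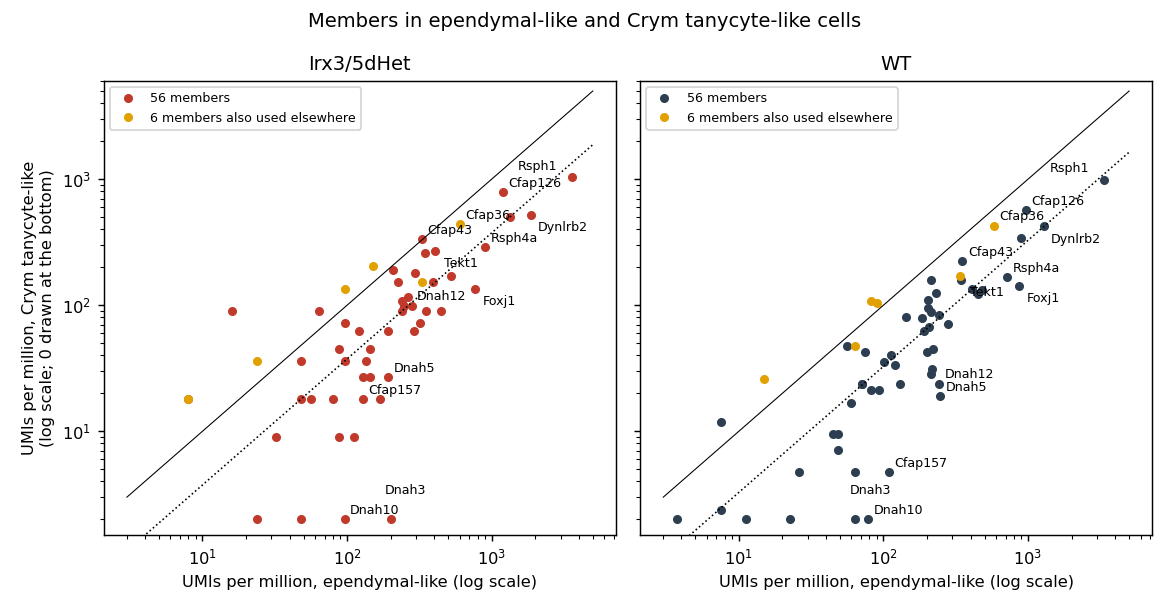
Level of each member with an ependymal-like UMI, in CPM, in ependymal-like cells (x axis, log scale) and Crym tanycyte-like cells (y axis, log scale), Irx3/5dHet in the left panel and WT in the right. The solid line marks equal levels and the dotted line the summed ratio of 0.375 in Irx3/5dHet and 0.327 in WT; Cfap43 and Cfap126 lie above the dotted line, Foxj1 and Dnah5 below it, and Dnah3 and Dnah10 at the bottom with 0 UMIs.

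At a finer clustering the ependymal-like cells fell apart into a Ccdc153-led cluster (40 Irx3/5dHet and 91 WT cells) and the rest (46 Irx3/5dHet and 78 WT cells), a split that rests on the genes clustered. The 56 axonemal members summed to 20419 CPM in Irx3/5dHet and 17675 CPM in WT in the Ccdc153-led cells. In the rest they summed to 13511 CPM in Irx3/5dHet and 11812 CPM in WT. Median UMIs per cell also differed, at 1463 in Irx3/5dHet and 1536 in WT Ccdc153-led cells and at 862.5 in Irx3/5dHet and 1007 in WT in the rest, and their part in the difference was not tested. Summed over both libraries, the rest had 0.665 (0.631 to 0.702) of the Ccdc153-led level. Of 47 members, 5 had an interval wholly below this ratio and 3 wholly above it. Dnah3 had 42 UMIs in the Ccdc153-led cells and none in the rest. Spag17 had 67 UMIs in the Ccdc153-led cells and 12 in the rest, and Rsph14 had 27 in the Ccdc153-led cells and 4 in the rest. Rsph9 had 76 UMIs in the Ccdc153-led cells and 18 in the rest, and Dnali1 had 140 in the Ccdc153-led cells and 36 in the rest. The ratio of the rest to the Ccdc153-led cells was 1.13 (0.738 to 1.71) for Cfap206, 1.04 (0.689 to 1.56) for Cfap100 and 0.826 (0.670 to 1.01) for Cfap126.

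**Figure D3:**
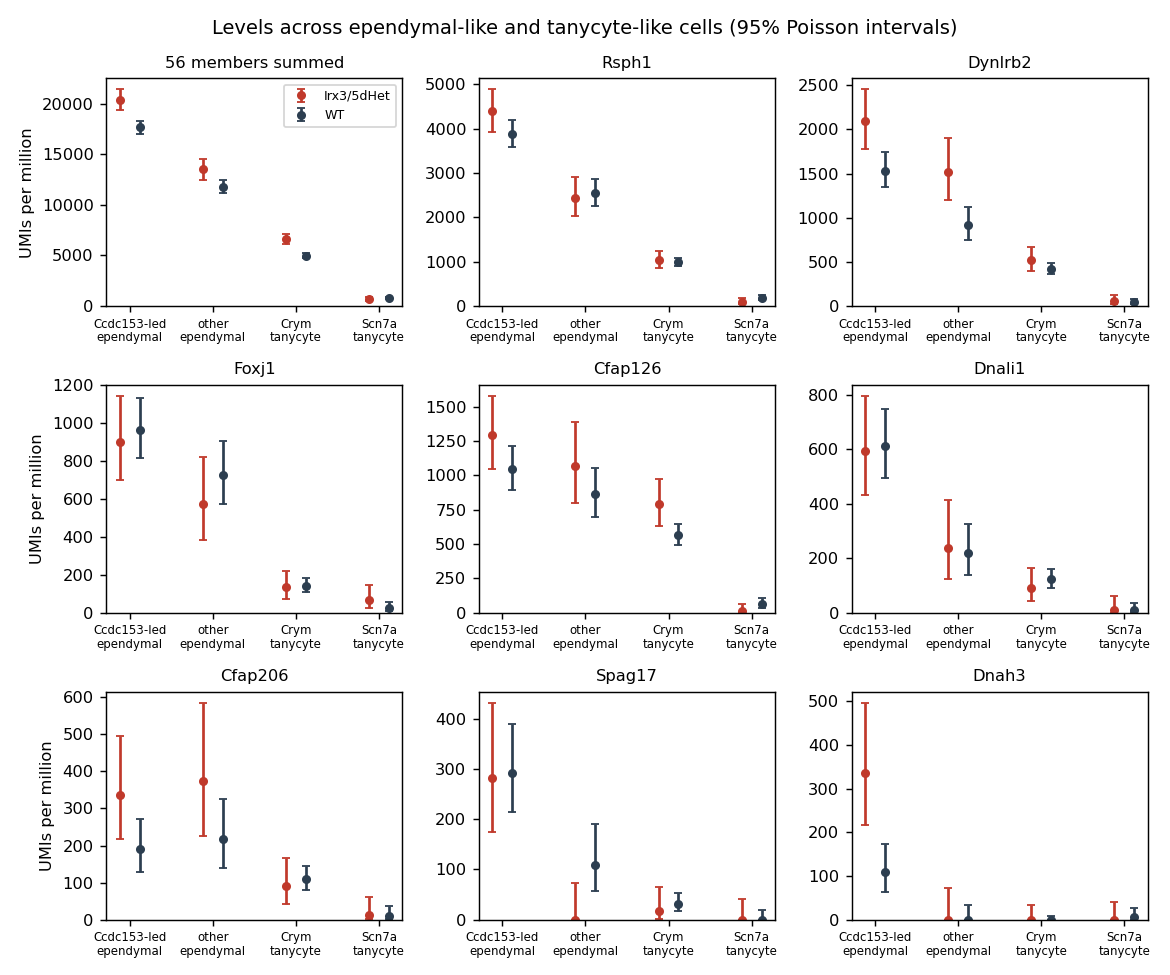
CPM (y axis, linear from 0) with 95% Poisson intervals in 4 groups of cells (x axis), Irx3/5dHet left of WT, for the 56 axonemal members summed and 8 single members. The sum steps down across the groups, to 679 in Irx3/5dHet and 779 in WT Scn7a tanycyte-like cells. Over both libraries, Cfap126 and Cfap206 change less than the sum within ependymal-like cells. Dnah3 stands in the Ccdc153-led cells, at 336 in Irx3/5dHet and 108 in WT.

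Scn7a tanycyte-like cells carried the tanycyte markers at a higher level (7710 CPM in Irx3/5dHet and 6185 CPM in WT). Their summed axonemal level lay close to that of the non-ventricular classes pooled, where neuron-like cells held most UMIs. Pars tuberalis-like cells had a similar level (729 CPM in Irx3/5dHet and 695 CPM in WT). Relative to oligodendrocyte-like cells the Scn7a tanycyte-like level was 3.63-fold (2.33 to 5.76) in Irx3/5dHet and 4.25-fold (3.235 to 5.62) in WT. The 4-fold call was met by 2 of 59 members, Dynlrb2 and Spag5, against 1.84% of all genes. Dynlrb2 had 5 UMIs (55.6 CPM) in Irx3/5dHet and 9 UMIs (44.4 CPM) in WT. Spag5, known from the mitotic spindle, had 5 UMIs in Irx3/5dHet and 13 in WT. The axonemal members were 9.73-fold (7.49 to 12.9) higher in Crym than in Scn7a tanycyte-like cells in Irx3/5dHet and 6.41-fold (5.45 to 7.58) higher in WT. Foxj1 had 6 UMIs (66.8 CPM) in Irx3/5dHet and 5 UMIs (24.7 CPM) in WT Scn7a tanycyte-like cells.

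Cell by cell, a UMI of an axonemal member was found in each of the 86 Irx3/5dHet and 169 WT ependymal-like cells, in 90.5% of Irx3/5dHet and 92.9% of WT Crym tanycyte-like cells, and in 51.0% of Irx3/5dHet and 60.2% of WT Scn7a tanycyte-like cells. Depth differs between classes, so cells with at least 1000 UMIs were thinned to 1000. Then 50 of 50 Irx3/5dHet and 108 of 108 WT ependymal-like cells had one, with a median of 11 members per cell in Irx3/5dHet and 10 in WT. Of Crym tanycyte-like cells, 97.4% (86.2% to 99.9%) in Irx3/5dHet and 98.9% (96.1% to 99.9%) in WT had one, with a median of 5 members in Irx3/5dHet and 4 in WT, after 78 Irx3/5dHet and 114 WT shallower cells were left out. Among Scn7a tanycyte-like cells the share was 43.2% (27.1% to 60.5%) in Irx3/5dHet and 44.1% (32.1% to 56.7%) in WT, and the median was 0 members. Oligodendrocyte-like cells, which bear no motile cilia, gave a low background, 16.7% (9.18% to 26.8%) in Irx3/5dHet and 16.6% (11.2% to 23.2%) in WT. Their median depths were 1136 UMIs in Irx3/5dHet and 1303 UMIs in WT. Unthinned, their share was 18.03% in Irx3/5dHet and 23.1% in WT. That of neuron-like cells, also unthinned, was 61.0% in Irx3/5dHet and 62.7% in WT. Pars tuberalis-like cells had 53.5% in Irx3/5dHet and 55.1% in WT. Both classes thus had shares near those of unthinned Scn7a tanycyte-like cells. Median depths of ependymal-like cells were 1216 UMIs in Irx3/5dHet and 1345 UMIs in WT. Rsph1 was found in 96.0% of Irx3/5dHet and 90.7% of WT thinned ependymal-like cells, and in 63.2% of Irx3/5dHet and 58.2% of WT Crym tanycyte-like cells. In oligodendrocyte-like cells it was found in 0 of 78 Irx3/5dHet cells, which allows a share of up to 3.85%, and in 1.23% of WT cells. Foxj1 was found in 52.0% of Irx3/5dHet and 51.85% of WT ependymal-like cells. In Crym tanycyte-like cells its share was 7.895% (1.66% to 21.4%) in Irx3/5dHet and 9.89% (5.97% to 15.2%) in WT. In oligodendrocyte-like cells the share was 5.13% (1.42% to 12.6%) in Irx3/5dHet and 1.23% (0.149% to 4.36%) in WT. The Crym tanycyte-like share of Foxj1 thus stood above the oligodendrocyte-like share in WT and could not be told from it in Irx3/5dHet.

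Neuron-like cells, which bear primary cilia, had 578 CPM (545 to 613) of the axonemal members in Irx3/5dHet and 731 CPM (693 to 770) in WT. This was 3.10-fold (2.18 to 4.55) the oligodendrocyte-like level in Irx3/5dHet and 3.99-fold (3.19 to 5.04) in WT. A few members held much of it. Rsph1 had 94.9 (81.6 to 110) in Irx3/5dHet and 162 (144 to 181) in WT, and Dnal1 had 78.1 in Irx3/5dHet and 103 in WT (CPM). Rsph9 had 73.4 in Irx3/5dHet and 65.8 in WT, and Tekt2 had 36.7 in Irx3/5dHet and 48.2 in WT. Rsph1 was uneven among neuron-like clusters. The cluster led by Vip and Avp had 172 (106 to 262) in Irx3/5dHet and 319 (255 to 395) in WT (CPM). The Npy and Agrp cluster had 149 (102 to 211) in Irx3/5dHet and 225 (138 to 348) in WT, and the Foxb1 cluster 47.7 (9.83 to 139) in Irx3/5dHet and 33.2 (9.04 to 84.9) in WT. Foxj1 was at 4.19 CPM in Irx3/5dHet and 5.70 CPM in WT neuron-like cells.

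Between the genotypes, members were somewhat higher in Irx3/5dHet than in WT ependymal-like cells when summed. The cell with the most member UMIs held 7.77% of the class sum in Irx3/5dHet (183 UMIs) and 3.26% in WT (143 UMIs). The part of such single cells in the higher sum was not tested. The log2 ratio of all members was 0.20 (0.12 to 0.27). By family it was 0.39 (0.19 to 0.60) for light or intermediate chains, 0.26 (-0.02 to 0.53) for heavy chains, 0.24 (-0.11 to 0.57) for Spag genes, 0.21 (-0.16 to 0.58) for tektins, 0.18 (0.06 to 0.29) for Cfap genes and 0.17 (0.02 to 0.31) for spoke genes, against -0.18 (-0.54 to 0.17) for Foxj1. Dynlrb2 held most UMIs of the light or intermediate chains, 233 of 322 in Irx3/5dHet and 342 of 524 in WT. Of 52 members with at least 10 UMIs, 35 were higher and 17 lower in Irx3/5dHet, with a median log2 ratio of 0.13, against -0.00 over 7125 genes. Past 2-fold, 2 of the 52 were higher, where 7.65% of all genes were, and 3 were lower, where 12.1% were, so neither count stood above the background. The 2 higher were Dnah3 at 1.65 (0.70 to 2.63) and Rsph3a at 1.61 (0.07 to 3.24). The cell with the most Dnah3 UMIs held 24.0% of them in Irx3/5dHet and 11.8% in WT. The 3 lower were Tekt2 at -2.23 (-5.37 to -0.19), with 2 UMIs in Irx3/5dHet and 20 in WT, Cfap97 at -1.41 (-3.82 to 0.38), with 3 UMIs in Irx3/5dHet and 17 in WT, and Cfap69 at -1.15 (-2.46 to -0.03), with 8 UMIs in Irx3/5dHet and 38 in WT. Among members with more UMIs, Cfap45 was at 0.58 (0.29 to 0.88), Dynlrb2 at 0.54 (0.29 to 0.79), Cfap206 at 0.80 (0.19 to 1.40), Cfap52 at 0.85 (0.23 to 1.46) and Rsph1 at 0.11 (-0.06 to 0.27). Of the 12 ependymal markers, the 6 not on the axoneme list were Rarres2, Mia, Pltp, Calml4, Tm4sf1 and Hdc. Their ratios ran from -0.18 (-0.44 to 0.07) for Pltp to 0.36 (-0.07 to 0.77) for Hdc, 4 above 0 and 2 below, and each interval spanned 0. Of the other lists, 44 of 56 axoneme genes were higher and 12 lower (median 0.31), 10 and 3 of 13 docking, ruler and nexin genes (0.25), 6 and 4 of 10 assembly factors (0.24), and 3 and 3 of 6 regulators (-0.07). Genes that primary cilia or other transport use too gave 21 and 6 of 27 for intraflagellar transport (0.34) and 8 and 2 of 10 for cytoplasmic dynein (0.35), and the members with wider use 3 and 2 of 5 (0.05). The sum was 0.21 (0.12 to 0.30) for the axonemal members in Ccdc153-led cells and 0.19 (0.06 to 0.33) in the other ependymal-like cells.

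In Crym tanycyte-like cells the log2 ratio of all members was 0.37 (0.26 to 0.48), with 0.92 (0.39 to 1.42) for tektins, 0.83 (0.25 to 1.39) for heavy chains and 0.41 (0.24 to 0.57) for Cfap genes. Of 44 members with at least 10 UMIs, 33 were higher and 11 lower in Irx3/5dHet, with a median of 0.38, against 0.01 over 8260 genes. Past 2-fold, 6 were higher, where 8.66% of all genes were, and none was lower, where 14.2% were. The 6 were Cfap52 at 2.07 (1.26 to 2.89), with 29 UMIs in Irx3/5dHet and 26 in WT, Dnah12 at 2.05 (0.68 to 3.45), with 11 UMIs in Irx3/5dHet and 10 in WT, Tekt4 at 1.33, Cfap61 at 1.07, Tekt2 at 1.07 and Cfap46 at 0.99 (0.5 added to each sum for the count of calls). A call needed no interval clear of 0, and those printed without an interval rest on few UMIs and may lie within counting error. Tekt4 had 8 UMIs in Irx3/5dHet and 12 in WT, and Cfap61 had 5 in Irx3/5dHet and 9 in WT. Tekt2 had 10 in Irx3/5dHet and 18 in WT, and Cfap46 had 21 in Irx3/5dHet and 40 in WT. These cells had a median of 808.5 UMIs in Irx3/5dHet and 1260 in WT, and the part of depth in the ratio was not tested. In a finer clustering, looked at after the ratios were seen, their makeup differed between the libraries. A cluster with no class name held 52.6% of them in Irx3/5dHet and 40.2% in WT, a tanycyte-like one 25% in Irx3/5dHet and 48.3% in WT, an ependymal-like one 12.1% in Irx3/5dHet and 4.39% in WT, and an astrocyte-like one 10.3% in Irx3/5dHet and 7.09% in WT. Within them the log2 ratio of the axonemal members was 0.28 (0.09 to 0.46), 0.39 (0.16 to 0.63), 0.20 (-0.08 to 0.49) and -1.41 (-2.37 to -0.56) in that order, the last from 13 UMIs in Irx3/5dHet and 96 in WT. Scn7a tanycyte-like cells had a log2 ratio of 0.01 (-0.28 to 0.30) for all members.

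**Figure D4:**
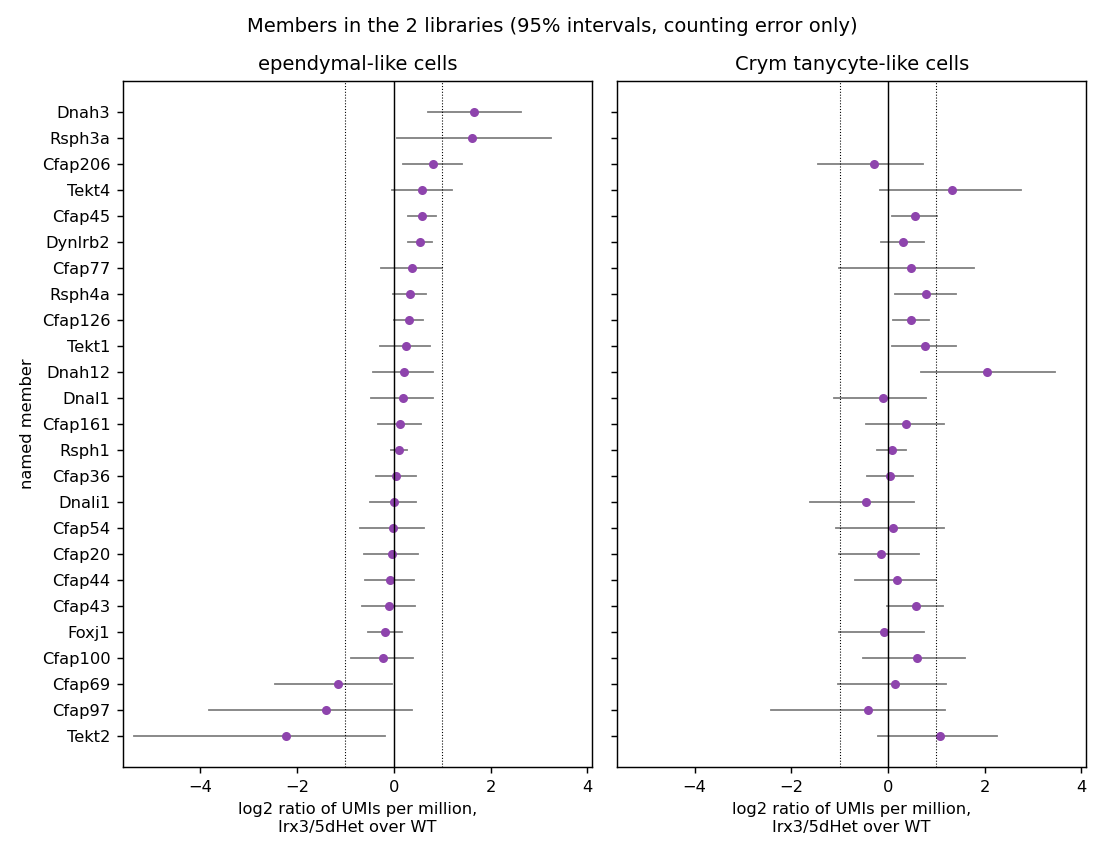
Log2 ratio of CPM, Irx3/5dHet over WT, for the named members (y axis) in ependymal-like cells (left) and Crym tanycyte-like cells (right), with 95% intervals; members with under 10 UMIs in a class are not drawn and dotted lines mark 2-fold. Most intervals span 0; in ependymal-like cells Dnah3, Rsph3a, Cfap206, Cfap45, Dynlrb2 and Cfap126 lie above 0 and Tekt2 and Cfap69 below it.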

How the data were processed

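UMI count tables, whole-number counts per gene and barcode deposited by the authors, were analysed for Irx3/5dHet and WT. Tools listed in the submitters' processing notes are STAR 2.6.0b, Picard, bcl2fastq and Seurat 3, with mm10 as the build. Annotation, multiply mapped reads and use of strand were not described in the sources used here. The values of the authors' merged table look like a natural log of scaled counts plus 1; it gave only 1 alternative choice of cells.

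A cell needed 300 genes and no more than 20% mitochondrial UMIs. Scrublet (expected rate 5%) marked 4 Irx3/5dHet and 13 WT cells as doublets, under 0.5% of the cells, so it has not worked as meant and doublets may remain. Clustering used scanpy 1.11.5 with 2000 variable genes, 30 principal components, 20 neighbours and Leiden resolution 1 (leidenalg 0.10.2). The members and the genes Irx3 and Irx5 were kept out of the variable genes, as were genes of mitochondria, ribosomes, haemoglobin and the sex chromosomes. A name needed at least 3 markers, each in 10% of the cells at over 2 times the median cluster, a mean log2 score of at least 2, and 0.6 of the best cluster's score. No cluster was astrocyte-like at this setting.

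UMIs were summed per library and class. Intervals are exact, at 95%: Poisson for sums, conditional binomial for ratios, Clopper-Pearson for shares. Genotype calls needed 10 UMIs over both libraries and 2-fold with 0.5 added to each sum. Ratios printed with an interval have nothing added. Named genes were the 20 members with most ependymal-like UMIs, Foxj1, Dynlrb2, members past 2-fold, the 10 and 5 leading genes of the axoneme and intraflagellar transport lists, and the 10 leading members in tanycyte-like cells. Others named were chosen after their values were seen. The members, lists, name limits and calls were chosen with earlier results of these data known. Ratios and their intervals were tested on simulated data. Python 3.11.15, numpy 2.4.6, scipy 1.17.1, pandas 2.3.3 and matplotlib 3.10.9 were used.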

Additional observations from a re-analysis of the deposited data

Results flagged for a closer look

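The summed axonemal members differed between genotypes in opposite directions in different classes, which was not tested. The log2 ratio of Irx3/5dHet over WT was 0.21 in ependymal-like cells, 0.40 in Crym tanycyte-like cells and -0.34 in neuron-like cells. Each genotype was 1 library. In each of 7 neuron-like clusters, all from the same 2 libraries, the level was lower in Irx3/5dHet, by unlike amounts. The largest cluster, led by Cartpt and Gal, had 584 UMIs per 1000000 (CPM) in Irx3/5dHet and 714 CPM in WT. The Npy and Agrp cluster differed little, with 508 CPM (109 UMIs) in Irx3/5dHet and 519 CPM (46 UMIs) in WT.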

How the results depend on the processing

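No paired analysis was possible because each genotype is 1 library. The log2 ratio of all members in ependymal-like cells (0.20 as reported) stayed positive in every alternative run, while the median over members (0.13 as reported) reached values just under 0. Single members with ratios near 0, such as Dnali1, Cfap54 and Foxj1, changed sign in some alternatives, within counting error, and no member past 2-fold did. Values are given for Irx3/5dHet and then WT, and the order of ependymal-like over tanycyte-like levels held in every alternative listed here. The level of all members in ependymal-like cells (18825 and 16429 CPM), the share of member UMIs there (34.6% and 37.8%) and the axonemal level in tanycyte-like cells (3959 and 3624) were as follows. With members in the clustering they were 17185 and 15328, 39.9% and 41.4%, and 2770 and 3261. At resolution 0.5, where the Crym cluster was named ependymal-like, they were 13508 and 9976, 47.0% and 59.0%, and 679 and 779, with a log2 ratio of all members of 0.44 and a median of 0.44. At resolution 2 they were 17582 and 15767, 37.7% and 39.8%, and 1974 and 2714. With each library clustered alone, where the Irx3/5dHet Crym cluster was named astrocyte-like, they were 20319 and 18906, 31.6% and 29.5%, and 642 and 4402, with a log2 ratio of 0.10 and a median of -0.0033. Cells with at least 500 genes gave 21169 and 18825, 30.1% and 28.8%, and 4810 and 4371. The cells of the authors' merged table gave 21392 and 18863, 27.9% and 28.7%, and 5349 and 4543, with a median of 0.21. With doublets kept they were 20449 and 18115, 31.0% and 32.7%, and 4560 and 4074. Without mitochondrial, ribosomal protein and haemoglobin UMIs the levels were 19756 and 17283, and 4248 and 3906. As a mean over cells, the log2 ratio was 0.087 and the median -0.032. Thinned to 500 UMIs, the share of WT cells with an axonemal member was 71.6% in tanycyte-like cells, against 84.0% at 1000 UMIs, and 6.17% in oligodendrocyte-like cells, against 16.6%. Naming ependymal-like cells without cilium markers used the same clusters and gave the same names, so none of these values could change. Of the 25 named members, 4 moved beyond counting error, all at resolution 0.5: Rsph1, Rsph4a, Dnah12 and Tekt2. The summed genotype ratio thus depends on which cells count as ependymal-like, and the cause was not tested. Low counts limit most single members.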
